A study of Mus musculus with 6 samples.

Results

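The macrophage lineage regulators and the CSF1 receptor are a set of 9 mouse genes, taken by symbol from a count table of 60832 rows: Csf1r, Csf1, Spi1, Irf8, Maf, Cebpb, Adgre1, Cd68 and Lyz2. Each symbol was found once, and all 9 genes passed the filter on low counts. The libraries were made from cells labelled liver sinusoidal endothelial cells (LSECs), which form the wall of the hepatic sinusoid. There were 3 libraries from bevacizumab-sensitive and 3 from bevacizumab-resistant liver metastasis xenografts of the human colorectal cancer line HCT116, and the comparison of these groups asks whether expression in the sinusoidal cells differed with resistance to bevacizumab, an antibody against VEGF-A. In both groups, HCT116 cells had been injected into the liver of young male BALB/c-Nu mice, an athymic strain that lacks mature T cells, the cells were drawn from the tissue with anti-CD146 beads, and the labels state culture for 24 h. Resistant xenografts had been under prolonged bevacizumab treatment by intraperitoneal injection, and the vehicle arm of the study received IgG. Resistance and prolonged exposure to the drug thus came together in the resistant group and cannot be told apart. The labels do not say whether each library came from a separate mouse or from a pool, so p-values measure the spread between these libraries, which may be technical.

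CSF1R is the receptor tyrosine kinase through which macrophages and their precursors receive the growth factors CSF1 and IL-34, and signalling through it keeps these cells alive. PU.1, encoded by Spi1, is the Ets-family factor that opens the myeloid programme, and IRF8, c-Maf and C/EBPβ act with it in monocytes and macrophages. F4/80 (Adgre1), the lysosomal glycoprotein CD68 and lysozyme M (Lyz2) are the usual surface and granule markers of the mature mouse macrophage, and in the liver the resident macrophages, the Kupffer cells, lie in the sinusoids beside the endothelium.

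The 9 genes were read against markers of the labelled cell type and of other liver cells. CPM, the counts of a gene relative to the total of its library, summed over 9 LSEC markers ranged from 133 to 380.0 in the sensitive group and from 64.8 to 449.6 in the resistant group, and over 13 pan-endothelial markers from 259 to 461 and from 56.3 to 384. Hepatocyte markers (6 genes) summed to between 29.0 and 150.5 CPM, stellate cell and fibroblast markers (8 genes) to between 78.4 and 337, and markers of T and NK cells, B cells, erythroid cells and dendritic cells to at most 10.8, 2.38, 10.4 and 22.0. The 9 macrophage genes summed to between 4642 and 11147 CPM, 7 Kupffer cell markers to between 12777 and 24837 CPM, and 16 other pan-macrophage genes to between 12405 and 17921 CPM. Mcam, which encodes the CD146 used for the isolation, had 17, 24 and 79 counts in the sensitive libraries and 8, 6 and 26 in the resistant ones. By contrast, the study's methods report a high purity of CD146-positive cells from flow cytometry, which measures protein and not RNA. The defining endothelial markers were thus present but low, and the data go against the label as the description of most of the RNA in these libraries. In such bulk libraries fewer cells of a type and less RNA per cell cannot be told apart. Total counts were between 17599326 and 20726684 per library, where 3 counts correspond to at most 0.170 CPM, and all 9 genes lay far above that floor. Replicate 2 of the sensitive group stood apart on the first principal component, which held 59.7% of the variance of all genes tested, and the fold changes of the 9 genes are given with and without it.

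**Figure D1:**
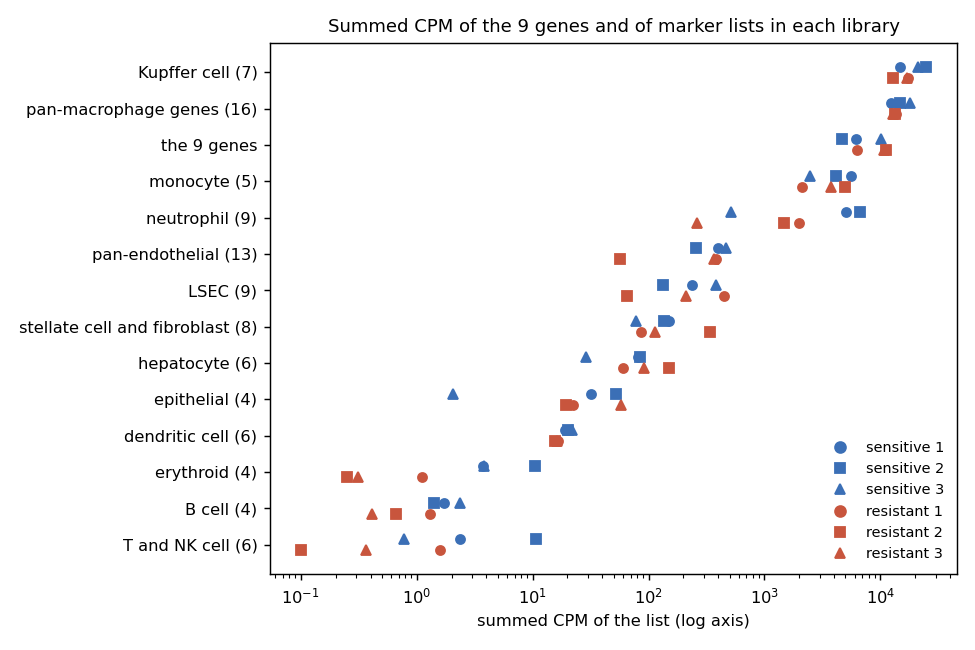
Summed CPM (horizontal log axis) of the 9 macrophage genes and of marker lists, with the number of genes in each list in parentheses, 1 point per library, blue for sensitive, red for resistant, with the marker shape giving the replicate. The Kupffer cell list lies between 12777 and 24837 CPM in all 6 libraries and the LSEC list between 64.8 and 449.6 CPM, and the neutrophil list is highest in sensitive replicates 1 and 2.

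Ordered by FPKM, the same measure divided by the exon length of the gene, which allows levels of different genes to be set side by side, Lyz2 was the highest, Cd68 the second and Csf1 the lowest of the 9 genes in all 6 libraries. Mean levels fell in the order Lyz2, Cd68, Cebpb, Csf1r, Spi1, Adgre1, Irf8, Maf, Csf1. Cebpb exceeded Csf1r in 5 of 6 libraries, Csf1r exceeded Spi1 in 5 of 6, Adgre1 exceeded Irf8 in 5 of 6 and Irf8 exceeded Maf in 5 of 6. Spi1 and Adgre1 could not be ordered, with Spi1 higher in 3 libraries and Adgre1 higher in 3. Among all rows of the table, Lyz2 ranked between 6 and 32 by FPKM, Cd68 between 22 and 101, Csf1r between 154 and 566, and Csf1 between 1848 and 4688. The receptor thus ranked among the more abundant transcripts of these libraries and its growth factor lay below it in each one.

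**Figure D2:**
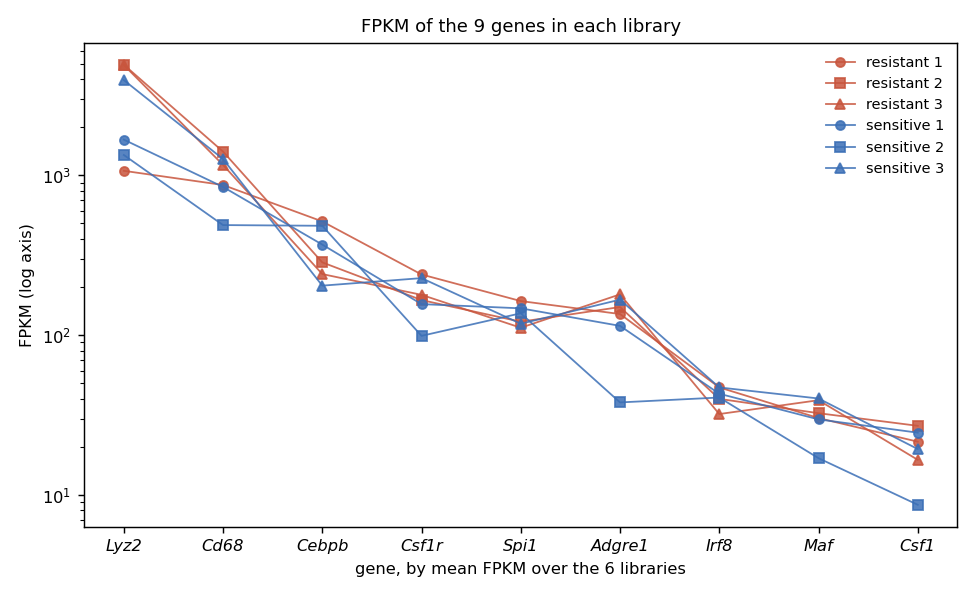
FPKM (vertical log axis) of the 9 genes in each library, with genes ordered by their mean over the 6 libraries and 1 line per library, blue for sensitive and red for resistant. Lyz2 and Cd68 lead and Csf1 is last in every library, and the line of sensitive replicate 2 drops to 37.9 FPKM at Adgre1, where the other 5 libraries lie between 114 and 179.9 FPKM.

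Between the groups, 0 of the 9 genes passed a threshold of 0.05 after Benjamini-Hochberg adjustment (edgeR's quasi-likelihood test), against 0.0% of the 15474 genes tested. Before adjustment 0 of 9 passed it too, where 3.08% of all genes tested were called, 0.536% higher and 2.54% lower in the resistant group. The libraries of the groups overlapped for all 9 genes, where 8.39% of genes tested did not overlap, 5.01% higher and 3.38% lower in the resistant group. The fitted log2 fold change, resistant minus sensitive, was above 0 for 6 genes and below 0 for 3, against 50.8% above 0 over all genes, with a median of 0.22 against 0.01 over all genes. Without replicate 2 of the sensitive group, 5 lay above 0 and 4 below, and the median was 0.0075. The adjusted p-value was 0.940 for 7 of the genes, 0.948 for Spi1 and 0.962 for Cebpb.

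**Figure D3:**
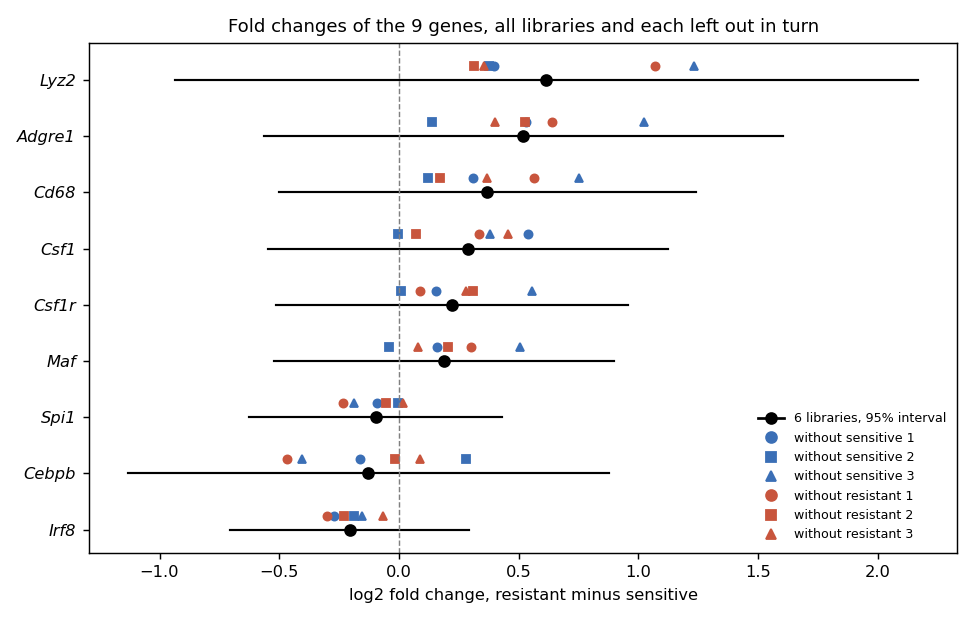
Log2 fold change (horizontal axis, resistant minus sensitive) of the 9 genes from edgeR's quasi-likelihood fit, black points with 95% intervals from all 6 libraries, and coloured points from fits that leave out 1 library each. All 9 intervals include 0, and the points of Csf1, Spi1, Maf and Cebpb lie on both sides of 0.

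Csf1r (chromosome 18 of GRCm38, 61100598 to 61132149, plus strand), which encodes the receptor, had 902, 571 and 1313 CPM in the 3 sensitive libraries and 1383, 957 and 1032 CPM in the resistant ones. Sensitive replicate 2 was the lowest and the other 5 libraries interleaved. The group means were 929 ± 371 CPM (SD, n = 3) and 1124 ± 228 CPM (SD, n = 3), and the log2 fold change was 0.22 (standard error 0.311, 95% interval -0.51 to 0.95). It was 0.0075 without sensitive replicate 2 and 0.55 without sensitive replicate 3. Exons of Csf1r share 873 bases with Hmgxb3 on the opposite strand, which had between 233 and 716 counts per library, and without a statement that the counting used strand the reads of the pair cannot be told apart there.

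Csf1 (chromosome 3, 107741048 to 107760469, minus strand), which encodes the ligand, had 129, 45.7 and 102 CPM in the sensitive libraries and 114, 143 and 87.4 CPM in the resistant ones. Sensitive replicate 2 was again the lowest, and the remaining values of both groups covered one range. Its log2 fold change was 0.29 (standard error 0.354, 95% interval -0.55 to 1.12), and -0.0036 without sensitive replicate 2. Per length, Csf1r exceeded Csf1 by 6.13 to 11.8 times, with a median ratio of 11.0. Il34, the second ligand of the receptor, had 47, 2 and 3 counts in the sensitive and 13, 16 and 15 counts in the resistant libraries. Its FPKM was 1.22 in sensitive replicate 1 and at most 0.413 in the other 5 libraries, below that of Csf1 in all 6.

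Spi1 (chromosome 2, 91082390 to 91115756, plus strand) had 396, 369 and 317 CPM in the sensitive libraries and 440.1, 327 and 299.6 CPM in the resistant ones. The groups overlapped, and the lowest value was in resistant replicate 3. The means were 361 ± 40.1 CPM and 356 ± 74.5 CPM (SD, n = 3 each), with a log2 fold change of -0.10 (standard error 0.224, 95% interval -0.62 to 0.43), and -0.0050 without sensitive replicate 2. The CPM of its highest library was 1.47 times that of its lowest. On the TMM-scaled log2 CPM its range was 0.51, and of 9643 genes with an average of at least 3 on that scale, 17.1% had a narrower range.

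Irf8 (chromosome 8, 120736358 to 120756694, plus strand), the interferon regulatory factor that partners PU.1 in monocyte and dendritic cell development, had 303, 287 and 332 CPM in the sensitive libraries and 332, 281 and 226 CPM in the resistant ones. The lowest value was in resistant replicate 3 and the others lay close together. Its log2 fold change was -0.21 (standard error 0.212, 95% interval -0.70 to 0.29), -0.19 without sensitive replicate 2 and -0.067 without resistant replicate 3. Spi1 and Irf8 were the steadiest of the 9 genes, both with a highest library 1.47 times the lowest, and the FPKM of Spi1 was 2.50 to 3.47 times that of Irf8 in every library. Of all pairs among the 9 genes they were also the most alike across libraries, with a root mean square difference of centred log2 CPM of 0.17. This measure is small for genes of narrow range. Over all genes compared, Irf8 stood only at place 583 among those nearest to Spi1, and Spi1 at place 286 among those nearest to Irf8.

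Maf (chromosome 8, 115682942 to 115707794, minus strand), which encodes c-Maf, a factor that restrains macrophage proliferation, had 244 CPM in sensitive replicate 1, 139.8 in replicate 2 and 330.4 in replicate 3. The resistant libraries had 249, 267 and 322 CPM and thus lay within the range of the sensitive ones. The log2 fold change was 0.19 (standard error 0.301, 95% interval -0.52 to 0.90), with -0.043 without sensitive replicate 2 and 0.50 without sensitive replicate 3.

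Cebpb (chromosome 2, 167688915 to 167690418, plus strand), a single-exon gene whose factor C/EBPβ acts in inflammatory and emergency myelopoiesis, had 554, 727 and 307 CPM in the sensitive libraries and 774, 429 and 362 CPM in the resistant ones. Its high libraries were sensitive replicates 1 and 2 and resistant replicate 1, and each group spanned more than a 2-fold range. The log2 fold change was -0.13 (standard error 0.425, 95% interval -1.13 to 0.88), which became 0.28 without sensitive replicate 2 and 0.087 without resistant replicate 3. Cebpb shares 312 exon bases with Tmem189 on the opposite strand, which had between 2678 and 3434 counts per library. Cebpa, whose factor drives the step from progenitor to granulocyte and monocyte, had 282, 220.2 and 317 CPM in the sensitive and 362, 429 and 373 CPM in the resistant libraries. These groups did not overlap, although the log2 fold change of 0.45 (standard error 0.209) had an unadjusted p of 0.0669 and an adjusted p of 0.940 from edgeR's test. The FPKM of Cebpb was 1.69 to 5.79 times that of Cebpa.

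Adgre1 (chromosome 17, 57358691 to 57483527, plus strand), the gene of the F4/80 antigen, had 369.8, 123 and 539.8 CPM in the sensitive libraries and 439, 485 and 582 CPM in the resistant ones. Sensitive replicate 2 was far below the other 5 libraries, and the highest library was 4.75 times the lowest. The means were 344 ± 209.7 CPM and 502 ± 73.4 CPM (SD, n = 3 each). The log2 fold change was 0.52 (standard error 0.459, 95% interval -0.56 to 1.60), 0.14 without sensitive replicate 2 and 1.02 without sensitive replicate 3. The last fit gave the smallest unadjusted p-value of any of the 9 genes under the alternatives tried, 0.0511, with an adjusted p of 0.659 from edgeR's test, and over the alternatives the adjusted p of Adgre1 ranged from 0.659 to 1.000.

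Cd68 (chromosome 11, 69664213 to 69666153, minus strand), which encodes a heavily glycosylated protein of the lysosomal membrane, had 1064, 614 and 1591 CPM in the sensitive libraries and 1094, 1771 and 1461 CPM in the resistant ones. Sensitive replicate 2 was the lowest, and sensitive replicate 3 was second only to resistant replicate 2. The log2 fold change was 0.37 (standard error 0.368, 95% interval -0.50 to 1.24), 0.12 without sensitive replicate 2 and 0.75 without sensitive replicate 3. Cd68 stood at 6.43 to 12.9 times the FPKM of Adgre1. Its FPKM was close to that of Lamp1, a lysosomal membrane protein of most cell types, with a ratio between 0.964 and 1.33.

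Lyz2 (chromosome 10, 117277331 to 117282321, minus strand), the lysozyme gene of mouse macrophages and neutrophils, had 2203, 1766 and 5196 CPM in the sensitive libraries and 1405, 6488 and 6459.8 CPM in the resistant ones. Sensitive replicate 3 and resistant replicates 2 and 3 were high and the other 3 libraries low, so that both groups held high and low libraries. The means were 3055 ± 1867 CPM and 4784 ± 2926 CPM (SD, n = 3 each), and the highest library was 4.62 times the lowest. By range of TMM-scaled log2 CPM Lyz2 was the most variable of the 9 genes, at 2.32, followed by Adgre1 at 2.03. The log2 fold change was 0.62 (standard error 0.658, 95% interval -0.94 to 2.17), 0.38 without sensitive replicate 2, 0.32 without resistant replicate 2 and 1.23 without sensitive replicate 3. It was the widest interval of the 9 genes.

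Lyz2 has a near copy, Lyz1, the lysozyme P gene of Paneth cells, beside it on chromosome 10 (117287797 to 117292868, minus strand). The coding sequences are of one length, 444 bases, and differ at 22 of them, so that reads of the pair could be split or lost in counting. Bases 61 to 210 of both coding sequences (GENCODE M21, GRCm38), which hold 15 of these differences in capitals, show where reads can be told apart and where they cannot.
Lyz2: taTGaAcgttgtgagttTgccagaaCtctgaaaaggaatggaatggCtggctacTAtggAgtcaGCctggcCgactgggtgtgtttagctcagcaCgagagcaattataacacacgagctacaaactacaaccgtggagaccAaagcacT
Lyz1: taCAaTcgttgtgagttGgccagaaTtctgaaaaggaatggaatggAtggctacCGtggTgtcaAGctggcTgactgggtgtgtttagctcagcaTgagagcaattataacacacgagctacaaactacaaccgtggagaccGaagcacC
Of the 1267 windows of 50 bases in the Lyz2 transcript, 195 (15.4%) also occur in that of Lyz1. The study's methods state reads longer than these windows, for which the shared part would be smaller. Lyz1 had 14, 27 and 55 counts in the sensitive and 1, 28 and 29 counts in the resistant libraries, and per length Lyz2 exceeded it by at least 1105 times in every library. With the counts of both genes summed, the log2 fold change was again 0.62 (standard error 0.658).

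The 3 libraries with the highest Cebpb were the 3 with the lowest Lyz2, although among the other 3, sensitive replicate 3 had the lowest level of both genes and resistant replicate 2 the highest of both, and the FPKM ratio of Lyz2 to Cebpb was 4.54, 2.78 and 19.4 in sensitive replicates 1, 2 and 3 and 2.07, 17.3 and 20.4 in resistant replicates 1, 2 and 3. Among pairs of the 9 genes this pair was the least alike, with a root mean square difference of 1.38 in centred log2 CPM. The summed CPM of 9 neutrophil markers was 5022, 6683 and 513 in the sensitive and 1979, 1460.0 and 261 in the resistant libraries, of 5 monocyte markers 5628, 4106 and 2479 in the sensitive and 2108, 4939.7 and 3743 in the resistant libraries. On average Chil3 made up most of the monocyte sum, at means of 3563 CPM in the sensitive and 3409 CPM in the resistant group. The median FPKM of the monocyte markers was 84.6, 47.2 and 18.5 in the sensitive and 36.1, 24.1 and 8.30 in the resistant libraries. None of the neutrophil and monocyte markers was at 0 in every library, and all 9 neutrophil and all 5 monocyte markers had fitted log2 fold changes below 0, where 50.8% of all genes tested lay above 0. Log2 fold changes were also below 0 for 13 of 13 pan-endothelial markers, 8 of 9 LSEC markers, 5 of 7 Kupffer cell markers and both tested erythroid genes. They were above 0 for 6 of 6 hepatocyte markers and for 6 of 7 tested stellate cell and fibroblast markers. These direction counts are from the fit of all 6 libraries alone. The 13 pan-endothelial log2 fold changes ranged from -1.93 to -0.0011. Of the pan-endothelial markers 5 had an unadjusted p-value under 0.05 and 6 did not overlap between the groups, and both erythroid genes did not overlap. All 4 erythroid markers were, however, at 3 counts or fewer in resistant replicates 2 and 3. The part of these markers' cells in the levels of Lyz2 and Cebpb was not tested.

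**Figure D4:**
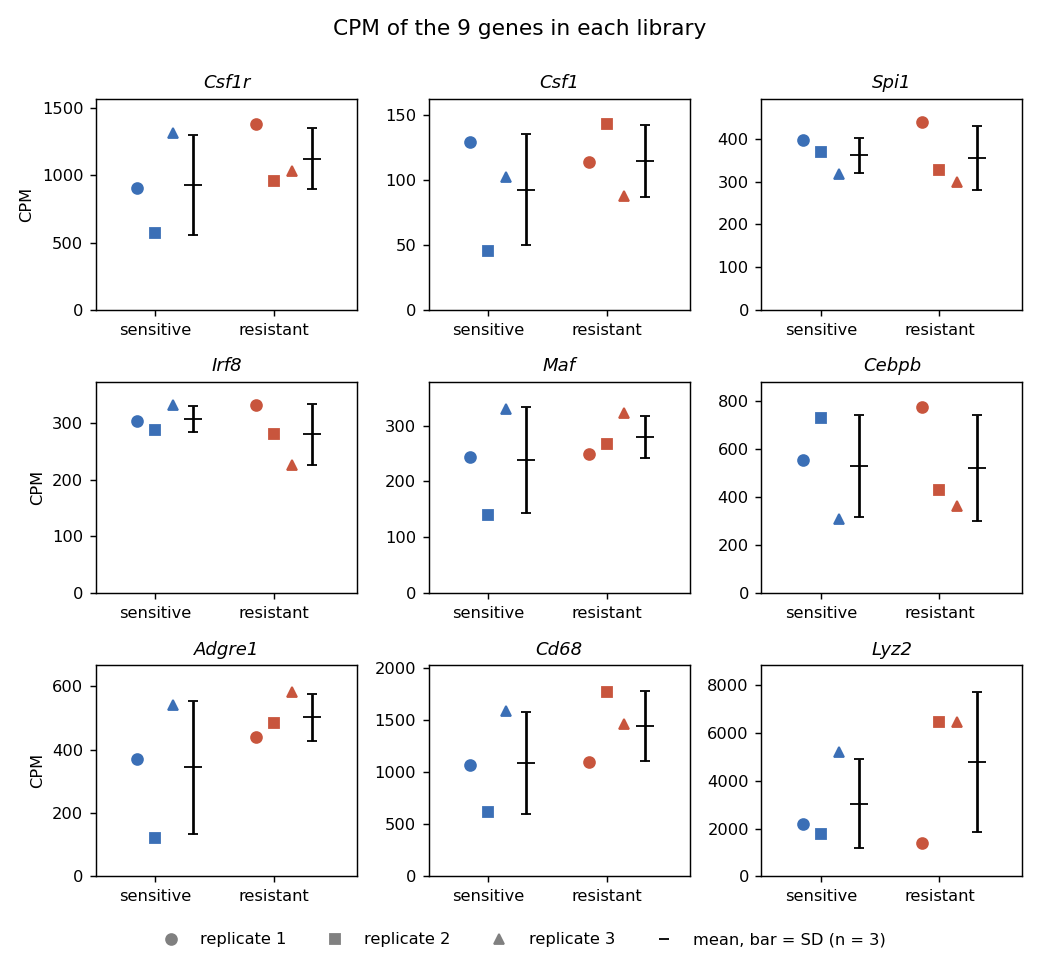
CPM (vertical axis from 0) of each of the 9 genes in the 3 sensitive (blue) and 3 resistant (red) libraries, with the marker shape giving the replicate and black bars the mean and SD (n = 3). The groups overlap in all 9 panels, sensitive replicate 2 is lowest for Csf1r, Csf1, Maf, Adgre1 and Cd68, and Lyz2 is high where Cebpb is low.

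Of the 9 genes, 5 shared their lowest library. Csf1r, Csf1, Maf, Adgre1 and Cd68 were lowest in sensitive replicate 2, which was also the lowest library for 47.7% of all genes tested. They were also lowest there on the TMM-scaled log2 CPM, where TMM is edgeR's normalization for the composition of each library. The highest library of Csf1r, Spi1, Irf8 and Cebpb depended on the scale, being resistant replicate 1 by CPM on library totals and sensitive replicate 2 or 3 by TMM-scaled log2 CPM. Csf1, Cd68 and Lyz2 were highest in resistant replicate 2, which had the lowest summed level of LSEC markers, at 64.8 CPM. The summed CPM of the 7 Kupffer cell markers was highest in sensitive replicate 2, at 24837, and lowest in resistant replicate 2, at 12777. Their median FPKM was instead lowest in sensitive replicate 2, at 236, and between 603 and 980.2 in the other libraries, so the sum and the typical marker differed in direction there. The part of these other cells' RNA in the levels of the 9 genes was not tested.

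By root mean square difference of centred log2 CPM over the 6 libraries, among 9643 genes, the genes whose pattern was most like that of Csf1r were Appl2 (0.05), Plxnb2 (0.09) and Serinc5 (0.10). For Csf1 they were Rrp1b (0.07), Bola3 (0.13) and Rab7-ps1 (0.13), for Spi1 Noc2l (0.04), Elac2 (0.05) and Polr1b (0.05), and for Irf8 Gtf2h2 (0.05), Trub1 (0.05) and Lap3 (0.07). For Maf they were Klhl28 (0.04), Atp6v0e (0.04) and Arhgap35 (0.05), for Cebpb H2ax (0.13), Ier2 (0.15) and Ppif (0.16), for Adgre1 Dnajc12 (0.05), Igf2r (0.06) and Cilk1 (0.06), and for Cd68 Prps2 (0.08), Etv5 (0.10) and Dpy19l4 (0.12). No gene came as close to Lyz2, whose nearest were Hhipl1 (0.35), Hyal1 (0.36) and Slc6a8 (0.37). Lists of this length picked from many genes over 6 points are a description only.

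Windows upstream of the start sites were searched for the short motifs of the factors among the 9 genes, since Lyz2 and Cd68 are known targets of PU.1 and C/EBP factors and Lyz1 beside Lyz2 was nearly silent. RefSeq windows of GRCm38.p6 were matched for 5 of the 9 genes, Cd68, Cebpb, Csf1, Irf8 and Lyz2. On both strands, GAGGAA (PU.1) occurs in 23.3% of all 32851 windows, TTNNGNAAT (C/EBP) in 10.2% and TGCTGAC (MAF) in 3.81%. The windows of Cd68 (chr11:69666171-69666420, minus strand), Lyz2 (chr10:117282322-117282522, minus strand, the shorter one) and Lyz1 (chr10:117292869-117293118, minus strand) are printed with matches in capitals.
Cd68: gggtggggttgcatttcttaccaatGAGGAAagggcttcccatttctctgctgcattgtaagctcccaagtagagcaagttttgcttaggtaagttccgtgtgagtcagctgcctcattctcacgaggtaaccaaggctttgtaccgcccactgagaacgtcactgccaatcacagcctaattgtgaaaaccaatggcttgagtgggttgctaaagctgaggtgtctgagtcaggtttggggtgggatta
Lyz2: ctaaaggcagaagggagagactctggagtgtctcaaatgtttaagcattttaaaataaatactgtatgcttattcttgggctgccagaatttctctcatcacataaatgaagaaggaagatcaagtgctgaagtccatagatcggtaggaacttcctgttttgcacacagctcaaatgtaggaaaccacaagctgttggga
Lyz1: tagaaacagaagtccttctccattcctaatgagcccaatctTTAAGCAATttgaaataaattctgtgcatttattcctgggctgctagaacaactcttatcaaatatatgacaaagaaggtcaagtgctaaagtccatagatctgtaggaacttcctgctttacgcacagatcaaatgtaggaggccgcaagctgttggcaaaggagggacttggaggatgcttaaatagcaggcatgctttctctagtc
Cd68 holds GAGGAA between 225 and 220 bases before the start, Lyz1 holds TTNNGNAAT between 209 and 201 bases before it, and the windows of Lyz2, Cebpb, Csf1 and Irf8 hold no match to the 3 motifs. A match is only a run of letters.

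Of the other genes of the pathway, 0 of those tested in each of 7 lists had an adjusted p-value under 0.05, and 4 of 78 genes in all had an unadjusted one, against 3.08% of all genes tested. Without sensitive replicate 2 there were 5. Among the myeloid growth factors 4 of 6 were tested, with fold changes above 0 for 2 and below 0 for 2 and a median log2 fold change of 0.05. Kitl, the ligand of KIT, had 0.33 (standard error 0.392) at a mean of 6.60 FPKM and Csf3, the granulocyte growth factor, 0.94 (standard error 0.574) at 1.84 FPKM. Csf2 and Il3 did not pass the filter, and Il3 had 0 counts in every library.

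Of 7 receptors of myeloid growth factors 6 were tested, with a median log2 fold change of -0.47. Csf3r, the G-CSF receptor of the neutrophil lineage, had 244, 222 and 129 CPM in the sensitive and 127, 100.1 and 76.2 CPM in the resistant libraries. Its groups did not overlap, and its log2 fold change of -1.05 (standard error 0.312) had an unadjusted p of 0.0119 and an adjusted p of 0.940 from edgeR's test, beside the neutrophil marker sums given above. The GM-CSF receptor chains Csf2ra and Csf2rb had log2 fold changes of 0.33 (standard error 0.451) and 0.04 (standard error 0.401) at means of 65.0 and 49.3 FPKM, and Il3ra -1.23 (standard error 0.623).

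Of 16 signalling partners of CSF1R all were tested, 5 above 0 and 11 below, with a median log2 fold change of -0.06. Fgr, a Src-family kinase of myeloid cells, had 123, 95.7 and 134 CPM in the sensitive and 82.9, 51.1 and 49.1 CPM in the resistant libraries, which did not overlap. Its log2 fold change was -1.01 (standard error 0.243, unadjusted p = 0.00416, adjusted p = 0.940 from edgeR's test). The adaptor Tyrobp, which was the most abundant of the list at 844 FPKM, had -0.21 (standard error 0.326), and the exchange factor Sos1 had 0.56 (standard error 0.339) with groups that did not overlap.

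Of 24 other myeloid transcription factors 22 were tested, 13 above 0 and 9 below, with a median log2 fold change of 0.06 and 0 at an unadjusted p-value under 0.05. Irf7, the interferon-induced IRF, had -0.73 (standard error 0.516) and Irf5 0.14 (standard error 0.205), at means of 104 and 70.9 FPKM, and Batf3, a factor of conventional dendritic cells, -0.78 (standard error 0.548). All 9 MAF and C/EBP relatives were tested, 5 above 0 and 4 below, with a median of 0.04, and beside Cebpa the stress-induced Ddit3 had -0.87 (standard error 0.527). Of 7 relatives of the surface and lysosomal members 5 were tested, with a median of 0.13, Lamp1 at 0.26 (standard error 0.288), Adgre5, which encodes CD97, at 0.77 (standard error 0.360) and Lyz1 at -0.79 (standard error 1.05).

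All 16 pan-macrophage genes were tested, 6 above 0 and 10 below, with a median log2 fold change of -0.28 against 0.22 for the 9 genes, a difference that was not tested. Their most abundant genes were C1qa, a chain of complement C1q, at 2476 FPKM and a log2 fold change of -0.66 (standard error 0.419), and the lysosomal protease Ctss at 1724 FPKM and -0.29 (standard error 0.325). Aif1, the gene of the macrophage protein IBA1, had -2.20 (standard error 0.787, unadjusted p = 0.0262, adjusted p = 0.940 from edgeR's test) with all libraries and -0.72 (unadjusted p = 0.0541, adjusted p = 0.984 from edgeR's test) without sensitive replicate 2, and the Fc receptor Fcgr1 had -0.86 (standard error 0.434). Chosen after the values were seen, the lipopolysaccharide co-receptor Cd14 had 0.69 (standard error 0.263, unadjusted p = 0.0341, adjusted p = 0.940 from edgeR's test). With 1 library left out, the log2 fold change of Cd14 was between 0.52 and 0.87. The unadjusted p from edgeR's test was then between 0.00868 and 0.115, and it was largest without resistant replicate 1. The groups did not overlap for 3 genes of this list, Cd14 and Laptm5 being higher and Aif1 lower in the resistant group, and among the growth factors Flt3l was lower without overlap, where 8.39% of all genes tested did not overlap.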

How the data were processed

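RNA-seq was performed on 6 libraries labelled LSECs, grouped and numbered by their titles. Per the labels' processing notes, the authors aligned reads with HISAT2 2.0.5 and counted them with featureCounts 1.5.0-p3. The study's methods name poly(A) selection and ribosomal RNA depletion, and the labels the latter. The deposited counts are whole numbers without normalization. The deposited FPKM values are those counts divided by library total and gene length, and their lengths equal the GENCODE M21 (GRCm38) exon union within 1 base for 97.9% of 15280 genes with at least 50 counts, although the notes name mm9. Strand use in counting is not given in the sources used here. A second deposited table with the authors' own comparison (group means, fold changes and p-values) was not used.

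The test was edgeR 4.0.16 under R 4.3.3 (filterByExpr, TMM, robust quasi-likelihood test, two-sided, no covariate), and p-values were adjusted over all 15474 genes by the Benjamini-Hochberg method (threshold 0.05). Standard errors are implied by the F statistic. CPM used total counts, and log2 CPM for ranges and likeness TMM-scaled totals and a prior count of 2. Floors cover counting error only, and libraries differed by a chi-square per gene of at least 37.8. The script was tested on simulated data. Alternatives were DESeq2 1.42.0, limma 3.58.1 (voom, and log2(FPKM + 1) or + 0.1), other size factors and filters, the replicate block and each library left out. The members and gene lists were chosen with earlier results of these data known. Named were the 9 members, from each pathway list the 2 genes highest in mean FPKM and the 2 with the largest absolute log2 fold change at an average log2 CPM of at least 3, with Lyz1, Il34 and Cebpa, and the 3 genes nearest to each member. Some genes that the rule names are not reported here. For Ddit3, on 2 rows, the row with more counts was used.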

Additional observations from a re-analysis of the deposited data

How the results depend on the processing

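Of 136 recomputed log2 fold changes of the 9 genes, 131 kept their direction and kept an unadjusted p over 0.05, and 5 changed sign, in each case with 1 library left out. Leaving out each library in turn gave -0.0036 to 0.54 for Csf1, -0.23 to 0.018 for Spi1, -0.043 to 0.50 for Maf and -0.47 to 0.28 for Cebpb. The signs turned without sensitive replicate 2 (Csf1 -0.0036, Maf -0.043, Cebpb 0.28) or resistant replicate 3 (Spi1 0.018, Cebpb 0.087). Under these alternatives 0 of the 9 genes reached a p-value under 0.05, adjusted or not, with edgeR, DESeq2 or limma, and the smallest unadjusted one was 0.0511. All 63 recomputed mean levels moved by less than the spread between libraries, a limit that a mean with 1 library left out can hardly exceed.

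Over all genes, 24 had an adjusted p-value under 0.05 with DESeq2 against 0 with edgeR. Before adjustment 476 of 15474 genes tested passed 0.05, against 1189 of 31352 with no filter, 732 with DESeq2 and 167 to 1056 with 1 library left out. In the 7 pathway lists there were 4, against 7 with DESeq2 and 2 to 7 with 1 library left out. Of the 476, 83 were higher and 393 lower, against 141 and 306 with limma on log2(FPKM + 1) and 122 and 302 on log2(FPKM + 0.1), where the median of all genes shifted from 0.01 to 0.10. Leaving out sensitive replicate 1 gave 187 higher and 415 lower, and leaving out replicate 2 gave 192 and 440.

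Blocking on the replicate number left 0 genes past 0.05 after and 467 before adjustment, with 8 in the pathway lists and 0 of the 9 genes. Deviations of same-numbered libraries correlated at -0.00093, 0.034 and 0.19, and 1 of 3 pairs exceeded 0.1. Differently numbered libraries correlated at -0.13 to 0.078. With 3 libraries a group, these values cannot decide whether the numbers mark a pairing.

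The lowest count of any of the 9 genes was 805, for Csf1 in sensitive replicate 2. With 3 libraries a group and a biological coefficient of variation of 42.2%, the intervals of the 9 genes leave room for changes of the size of their upper and lower bounds.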
